A study of Homo sapiens with 3 samples.

Results

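The expression of 7 matrix metalloproteinase genes (MMP1, MMP2, MMP7, MMP9, MMP10, MMP13 and MMP14) and 3 genes for tissue inhibitors of metalloproteinases (TIMP1, TIMP2 and TIMP3) was examined in RWPE1 cells that differ in OLFM4, the gene for the secreted glycoprotein olfactomedin 4. The genes were chosen by name and found by their Ensembl identifiers, and all 10 are among the 58037 genes of the count table. RWPE1 is an immortalized, non-malignant human prostate epithelial cell line. Bulk RNA was measured in 3 libraries of 1 sample each. The lines are OLFM4-wild, OLFM4-knockout, which was made with a CRISPR/Cas9 double nickase, and a line labelled OLFM4-active. Comparisons of their libraries are written knockout against wild, active-labelled against wild and knockout against active-labelled. Per the study's methods, plasmids were introduced by transfection, stable lines were kept under puromycin, RNA came from cells sorted on a GFP reporter, and the knockout and wild lines are spoken of as clones. The methods describe the making of OLFM4-wild reporter cells with activation plasmids as well, and what sets the line labelled OLFM4-active apart from them is not given in the sources used here. With 1 library per line, every difference below is between libraries and has no replicate check.

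Matrix metalloproteinases are zinc-dependent proteases that cut proteins of the extracellular matrix and of the cell surface. Most are secreted as inactive proenzymes whose propeptide must be removed, and TIMPs block the active enzymes by binding to the catalytic site. In epithelia, collagenases and stromelysins are typically low at rest and inducible, whereas TIMPs are made continuously. The membrane-anchored enzyme encoded by MMP14 activates the proenzyme of MMP2 in a complex that uses TIMP2 as a bridge.

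The libraries held 16309906 counts for OLFM4-wild, 58837147 for OLFM4-knockout and 23224216 for the line labelled OLFM4-active. Levels are given as CPM, counts per 1000000 of a library size scaled with TMM factors, and intervals are exact Clopper-Pearson 95% intervals that cover counting error only. A floor of 3 counts equals 0.165 CPM in the OLFM4-wild line, 0.0584 CPM in the OLFM4-knockout line and 0.126 CPM in the line labelled OLFM4-active. OLFM4 itself had 214, 131 and 16 counts, or 11.8, 2.55 and 0.670 CPM, in the same order, so the line labelled OLFM4-active was the lowest of all and went against its label. Transcripts of the basal epithelial markers KRT5, KRT14, KRT15 and TP63 were present at 97.2 CPM or more in each library, and their summed level was 16778, 37575 and 19775 CPM in the same order. Of the luminal markers, KLK3 had 2 counts, both in the OLFM4-wild line. The stromal markers COL3A1 and LUM had 0 counts in every library, as did CDH5 of endothelium and LYZ and CD3E of leukocytes. Other stromal markers were present, with 549, 1324 and 521 counts for COL1A1, 50, 268 and 24 for COL1A2 and 18, 33 and 0 for DCN. KDR of endothelium had 21, 36 and 9 counts and CD14 of leukocytes 2, 25 and 6. None of the 4 endothelial and 4 leukocyte markers averaged 1 CPM, and their summed levels were 1.76, 0.838 and 0.460 CPM and 0.110, 0.526 and 0.251 CPM. The summed level of all 8 fibroblast and stromal markers was 34.5, 32.0 and 23.4 CPM, most of it COL1A1, and the part of these marker levels in the results was not tested. Of the smooth muscle markers ACTG2 and DES had 0 counts in each library and MYH11 held 21.4, 10.1 and 11.9 CPM. Compared with library totals alone, TMM raised log2 fold changes by 0.35 for knockout against wild, by 0.11 for active-labelled against wild and by 0.24 for knockout against active-labelled. In bulk RNA, fewer cells expressing a gene and less RNA per cell cannot be told apart.

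Before the values, the sequence upstream of 3 members is shown, because their genes went different ways in the libraries: MMP10 was scarce in the OLFM4-wild line and higher in the others, MMP7 of the same gene cluster was at or under the floor in every library, and TIMP3 was abundant and nearly level. The windows hold the 250 bases before the RefSeq start in GRCh38.p14, written 5′ to 3′ on the strand of the gene. Capitals mark the AP-1 motif (TGAGTCA or, on the other strand, TGACTCA) and the TATA box (TATAAA or TTTATA).
MMP10, minus strand, chr11:102780629-102780878: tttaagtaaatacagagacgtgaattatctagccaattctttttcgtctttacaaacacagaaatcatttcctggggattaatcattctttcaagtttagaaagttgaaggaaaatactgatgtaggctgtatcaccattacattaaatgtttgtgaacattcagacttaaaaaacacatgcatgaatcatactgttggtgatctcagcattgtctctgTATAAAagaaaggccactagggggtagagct
MMP7, minus strand, chr11:102530748-102530997: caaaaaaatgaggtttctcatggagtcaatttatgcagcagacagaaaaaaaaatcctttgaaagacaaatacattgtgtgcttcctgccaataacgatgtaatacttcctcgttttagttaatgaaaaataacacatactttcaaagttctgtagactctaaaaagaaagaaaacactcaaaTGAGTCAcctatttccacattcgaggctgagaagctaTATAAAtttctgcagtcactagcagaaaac
TIMP3, plus strand, chr22:32801455-32801704: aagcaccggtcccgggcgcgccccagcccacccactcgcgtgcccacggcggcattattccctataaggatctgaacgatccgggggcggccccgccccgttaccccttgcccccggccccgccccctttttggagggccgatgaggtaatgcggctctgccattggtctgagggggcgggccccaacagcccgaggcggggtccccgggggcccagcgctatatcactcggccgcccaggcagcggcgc

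The windows of MMP10 and MMP7 hold a TATA box that begins 31 and 30 bases before the start, and that of MMP7 also holds an AP-1 motif that begins 67 bases before it, without overlap with the TATA box. In windows that run 50 bases further past the start, 11.5% of 35116 promoters held this TATA box and 4.95% held this AP-1 motif. The window of TIMP3 held neither. The share of G and C was 34.4% for MMP10, 33.6% for MMP7 and 72.4% for TIMP3, where the median of all promoters was 58.0%. Windows were also present for MMP14 (56.8% G and C) and TIMP1 (64.8%), so 5 of the 10 genes were matched. Of these 5, the ETS motif (AGGAAG or CTTCCT, in 33.6% of all promoters) was found for MMP7 and TIMP1. These matches describe letters in the windows and do not show that a factor binds there.

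To learn how the RNA was spread over the listed protease and inhibitor genes, levels were divided by the exon length of each gene. This gives RPKM, that is CPM per kilobase. MMP28, which is not listed, was at 10.3, 16.7 and 10.1 RPKM in the wild, knockout and active-labelled libraries, above TIMP2 in each. In the wild library the counting intervals of MMP28 (9.46 to 11.1) and TIMP2 (8.98 to 10.1) overlapped. Among the listed genes, MMP14 and the TIMP genes held nearly all of the summed RPKM in each library. In the OLFM4-wild line the order was MMP14 at 35.0 RPKM, TIMP1 at 31.9, TIMP3 at 20.8, TIMP2 at 9.54 and MMP2 at 1.16. The other 5 genes lay between 0.353 RPKM for MMP9 and 0.0313 for MMP10. The counting intervals of MMP14 and TIMP1 overlapped in that library, and so did those of each neighbouring pair from MMP9 downward. In the OLFM4-knockout line TIMP1 led with 37.5 RPKM, ahead of MMP14 with 32.3, and the intervals no longer overlapped. MMP1 took the fifth place there with 1.39 RPKM, ahead of MMP2 with 0.426, whereas in the OLFM4-wild line it was eighth. The library labelled OLFM4-active had the same first 7 places as the OLFM4-knockout line, with TIMP1 at 34.8 RPKM and MMP14 at 25.4. MMP14 ranked above 96.3% of 19648 protein-coding genes in the OLFM4-wild line and above 94.5% and 93.4% in the OLFM4-knockout and active-labelled libraries. With the longest transcript in place of all exons as the length, MMP14 and TIMP1 changed places in the OLFM4-wild line, as did MMP10 and MMP13 in the OLFM4-knockout line. MMP28 then lay under TIMP2 in the wild and active-labelled libraries.

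**Figure D1:**
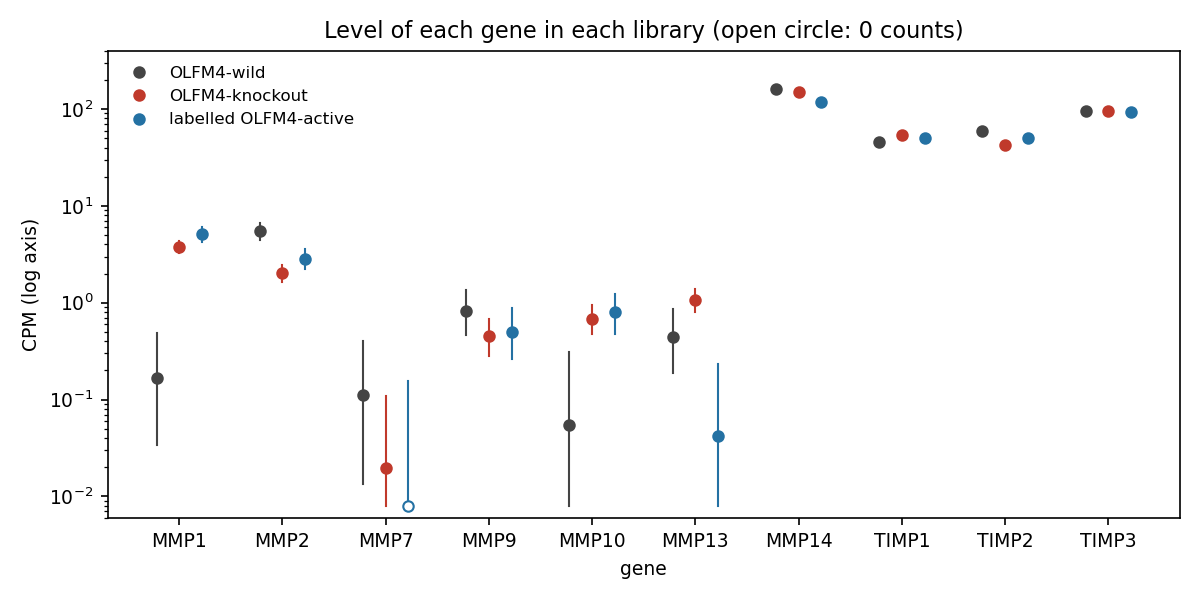
CPM on a log axis for each gene in the 3 libraries, with 1 point per library and bars for the 95% counting interval, cut at the lower edge. MMP14 and the TIMP genes stayed above 40 CPM in each library, while MMP1 and MMP10 stood lowest in the OLFM4-wild line.

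Among the 10 genes, the collagenase gene MMP1 showed the largest difference from the OLFM4-wild line. MMP1, on the minus strand of chromosome 11 from 102789401 to 102798160, encodes interstitial collagenase, which cuts fibrillar collagens. It had 3 counts in the OLFM4-wild line, or 0.165 CPM (0.0340 to 0.482). The OLFM4-knockout library had 195 counts, or 3.80 CPM (3.28 to 4.37), and the line labelled OLFM4-active had 121 counts, or 5.06 CPM (4.20 to 6.05). Both of these libraries were thus far above the OLFM4-wild line, and their intervals did not touch its interval. The log2 fold change was 4.31 (95% interval 2.96 to 6.81) for knockout against wild and 4.72 (3.36 to 7.24) for active-labelled against wild. Between the OLFM4-knockout and the active-labelled line it was -0.42 (-0.75 to -0.08). Because the OLFM4-wild value rests on 3 counts, the sizes depend on the offset, and an offset of 5 counts in place of 0.5 gave 3.15 and 3.58 for the first and second of these comparisons.

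MMP10 encodes stromelysin-2, a protease of broad matrix specificity that can activate other proMMPs, and lies beside MMP1 from 102770502 to 102780628. It had 1 count in the OLFM4-wild line, 35 in the OLFM4-knockout line and 19 in the line labelled OLFM4-active, which are 0.0550, 0.682 and 0.795 CPM. The pattern over the libraries had the same order as that of MMP1, at a lower level. Its log2 fold change was 3.07 (1.06 to 8.97) for knockout against wild and 3.31 (1.20 to 9.23) for active-labelled against wild. With an offset of 5 counts these values were 1.24 and 1.61. The 2 non-wild libraries differed by -0.24 with an interval from -1.07 to 0.67.

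MMP13, from 102942995 to 102955732 on chromosome 11, encodes collagenase 3 and had a different order. It had 8 counts in the OLFM4-wild line, 55 in the OLFM4-knockout line and 1 in the line labelled OLFM4-active, or 0.440, 1.07 and 0.0419 CPM. The OLFM4-knockout library was therefore the highest for MMP13 and the active-labelled line the lowest. For knockout against wild the log2 fold change was 1.21 (0.20 to 2.56), or 0.86 with library totals. For active-labelled against wild it was -2.90 (-8.87 to -0.50), and for knockout against active-labelled it was 4.11 (2.14 to 10.01). With an offset of 5 counts these values were 0.71, -1.51 and 2.22.

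MMP7, the gene for matrilysin, a small MMP without the hemopexin domain that is produced by many glandular epithelia, had 2 counts in the OLFM4-wild line, 1 in the OLFM4-knockout line and 0 in the line labelled OLFM4-active. All values were at or under the floor, and no fold change is given. For the count of 0 in the active-labelled line, the floor of 3 counts is 0.126 CPM and the upper Clopper-Pearson bound is 0.154 CPM.

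Since MMP1, MMP7, MMP10 and MMP13 lie in 1 cluster on chromosome 11, the whole cluster was read out. It spans 435.2 kb from 102520508 to 102955732 and holds 9 MMP genes, all on the minus strand, of which 4 are members of the list. Summed over the cluster, MMP counts were 19 in the OLFM4-wild line, 674 in the OLFM4-knockout line and 275 in the line labelled OLFM4-active, or 1.05, 13.1 and 11.5 CPM. In the OLFM4-wild line MMP13 held the most of these, 8 of 19, and in the others the most came from MMP3, the gene for stromelysin-1, which is not on the list and was picked for its place in the cluster. MMP3 had 5, 384 and 134 counts in the same order, and its log2 fold change was 4.63 (3.53 to 6.40) for knockout against wild and 4.22 (3.09 to 5.995) for active-labelled against wild. MMP8, MMP12 and MMP27 had 0 counts in each library, and MMP20 had 4 in the OLFM4-knockout line alone. The adjoining genes MMP10, MMP1 and MMP3 were thus higher in both lines than in the OLFM4-wild line, and MMP13 at the far end was higher in the OLFM4-knockout line and lower in the active-labelled line. The transcribed pseudogene WTAPP1 runs on the plus strand across MMP10 and MMP1 and into MMP3, from 102746968 to 102836766, and had 1, 44 and 37 counts. The counting used strand, so these reads were kept apart from those of the MMP genes.

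**Figure D2:**
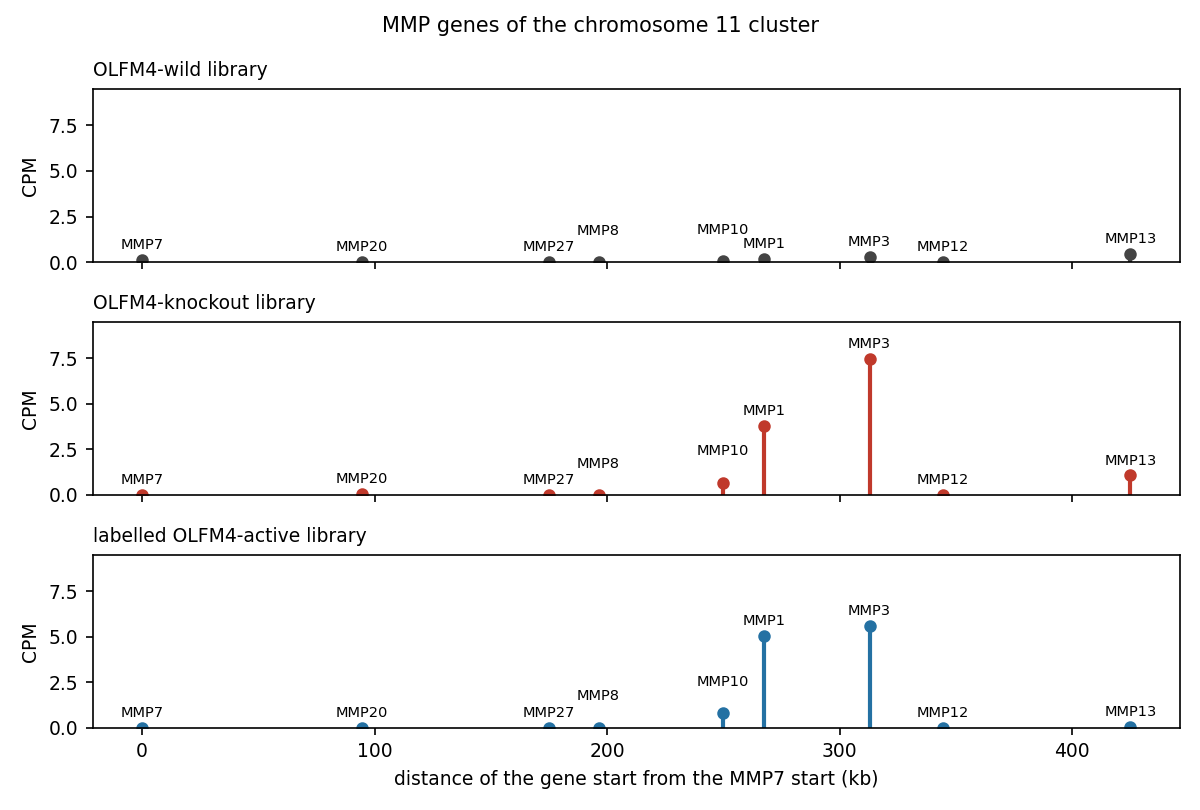
CPM of the 9 MMP genes of the chromosome 11 cluster in each library, placed by the distance in kb of the gene start from that of MMP7. MMP1 and MMP3 stood at 0.165 and 0.275 CPM in the OLFM4-wild line, at 3.80 and 7.48 CPM in the OLFM4-knockout line and at 5.06 and 5.61 CPM in the line labelled OLFM4-active.

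The gelatinase genes had their highest level in the OLFM4-wild line. MMP2, on chromosome 16 from 55389700 to 55506691, encodes gelatinase A, which cuts gelatin and type IV collagen. It had 99 counts in the OLFM4-wild line, 103 in the much deeper OLFM4-knockout library and 68 in the line labelled OLFM4-active. These are 5.45 CPM (4.43 to 6.63), 2.01 CPM (1.64 to 2.43) and 2.85 CPM (2.21 to 3.61), so the OLFM4-wild line was the highest and its interval did not overlap the others. In log2 terms MMP2 differed by -1.44 (-1.85 to -1.03) for knockout against wild and -0.93 (-1.40 to -0.48) for active-labelled against wild. With library totals the second of these values was -1.05, past the 2-fold line that it missed with TMM. Another annotated gene on the strand of MMP2 overlaps it and had 3, 4 and 11 counts.

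MMP9, on chromosome 20 from 46008908 to 46016561, encodes gelatinase B. It had 15, 23 and 12 counts, or 0.826, 0.448 and 0.502 CPM, over the wild, knockout and active-labelled libraries. Knockout against wild gave a log2 fold change of -0.90 (-1.88 to 0.16), and for active-labelled against wild it was -0.71 (-1.94 to 0.48). Both intervals included 0 with TMM. With library totals the values were -1.25 and -0.82, so how far the knockout value lay from 0 rests on the scaling. LCN2, whose product lipocalin 2 binds MMP9 protein and protects it from degradation, was lower by much more. Its counts were 168, 40 and 40, and its log2 fold change was -3.56 (-4.10 to -3.06) for knockout against wild and -2.45 (-3.001 to -1.96) for active-labelled against wild.

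The membrane-type protease gene MMP14, on chromosome 14 from 22836560 to 22849041, was abundant in each line. It had 2937 counts in the OLFM4-wild line, 7670 in the OLFM4-knockout line and 2804 in the line labelled OLFM4-active, or 162 CPM (156 to 168), 149 CPM (146 to 153) and 117.4 CPM (113 to 122). The active-labelled library was the lowest, and the other two differed by less than 10%. As a log2 fold change this was -0.11 (-0.17 to -0.05) for knockout against wild, -0.46 (-0.54 to -0.39) for active-labelled against wild and 0.35 (0.29 to 0.41) for knockout against active-labelled. With library totals the first of these was -0.47 and the last 0.11.

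The inhibitor genes differed little. TIMP1, on the X chromosome from 47582408 to 47586789, encodes a soluble inhibitor that acts weakly on membrane-type MMPs. Its counts of 837, 2785 and 1202 correspond to 46.1, 54.3 and 50.3 CPM over the wild, knockout and active-labelled libraries. The log2 fold change for knockout against wild was 0.24 (0.12 to 0.35) with TMM but -0.12 with library totals, so its direction rests on the scaling. Active-labelled against wild gave 0.13 with TMM and 0.01 with library totals, and knockout against active-labelled gave 0.11 with TMM and -0.13 with library totals. TIMP1 lies within SYN1, which is on the other strand and had 31, 9 and 9 counts.

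TIMP2, on chromosome 17 from 78852977 to 78925387, encodes the inhibitor that also links MMP14 to the proenzyme of MMP2. It had 1076 counts in the OLFM4-wild line, 2198 in the OLFM4-knockout line and 1195 in the line labelled OLFM4-active, or 59.2 CPM (55.7 to 62.9), 42.8 CPM (41.0 to 44.6) and 50.01 CPM (47.2 to 52.9). The order was wild, active-labelled and knockout from high to low, without overlap of intervals. TIMP2 had a log2 fold change of -0.47 (-0.57 to -0.36) for knockout against wild and -0.24 (-0.36 to -0.12) for active-labelled against wild, and both stayed negative with library totals at -0.82 and -0.36. CEP295NL lies inside TIMP2 on the same strand, with 124, 369 and 128 counts, and how reads common to both were treated is not given in the sources used here.

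TIMP3, on chromosome 22 from 32801705 to 32863041, encodes an inhibitor that is bound to the matrix and also blocks ADAM proteases. With TMM it was the most level member, with 1737, 4945 and 2204 counts, or 95.6, 96.3 and 92.2 CPM. Its log2 fold change was 0.01 (-0.07 to 0.09) for knockout against wild and -0.05 (-0.14 to 0.04) for active-labelled against wild. With library totals these values were -0.34 and -0.17, so the first of them changed sign, and TIMP1 was then the more level gene.

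**Figure D3:**
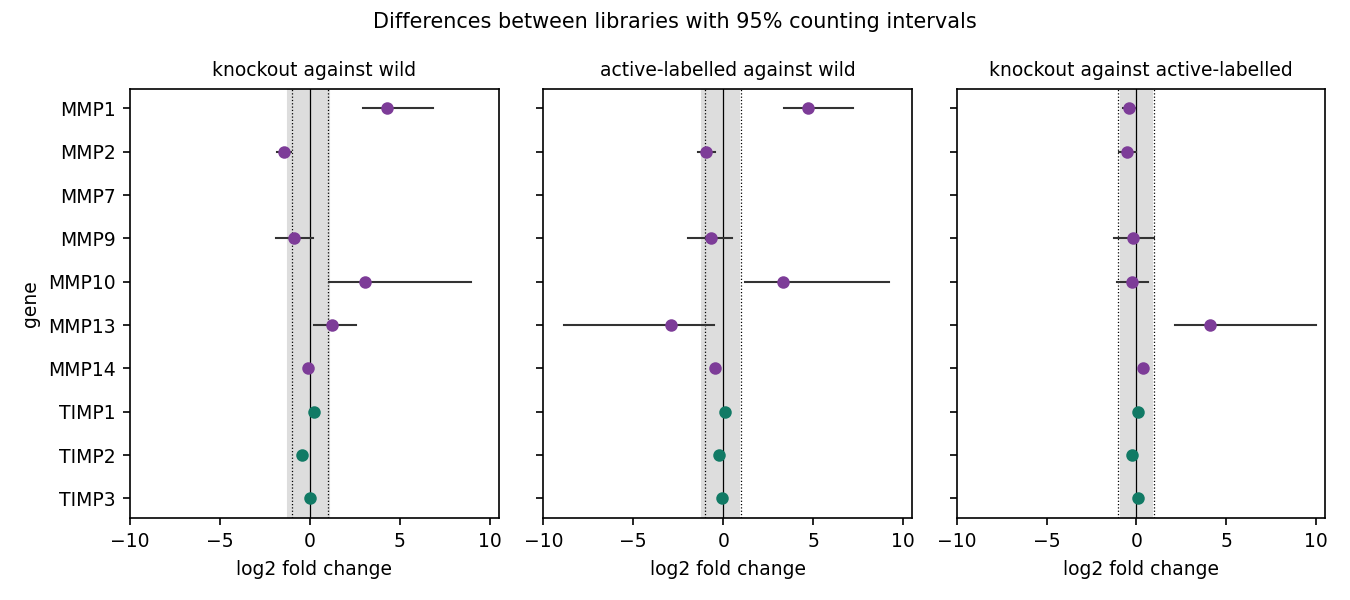
Log2 fold change of each gene in the 3 comparisons, with 95% counting intervals, MMP genes in purple and TIMP genes in green. Grey spans the central 90% of 16600 genes averaging 1 CPM or more, dotted lines stand at -1 and 1, and MMP7 is left out because it was at or under the floor. Against the OLFM4-wild line the points of MMP1 and MMP10 lie right of the grey band in both panels. That of MMP13 lies right of it for the OLFM4-knockout line and left of it for the line labelled OLFM4-active, with intervals that reach into it. MMP10 and MMP13 averaged under 1 CPM and are not among the genes of the band.

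Counted against a 2-fold line, a log2 fold change beyond 1 or -1, the members were read beside all genes. Of the 10 genes, 6 averaged 1 CPM or more over the libraries, namely MMP1, MMP2, MMP14 and the TIMP genes. MMP1 reached this mean only through the libraries in which it was high, so it had to differ. For knockout against wild, 1 of the 6 lay above the line (MMP1) and 1 below it (MMP2), where 5.77% of 16600 genes lay above and 7.56% below. With library totals these shares of all genes were 2.18% and 14.1%, and those for active-labelled against wild and knockout against active-labelled were 2.84% and 8.46% and 1.29% and 6.97%. In active-labelled against wild, MMP1 again lay above and none below, where 3.78% of all genes lay above and 6.73% below. For knockout against active-labelled, 0 of the 6 passed the line, where 2.95% of all genes lay above and 3.39% below. The median of the 6 was -0.05, -0.15 and -0.08 in these comparisons, and that of all genes was 0.10, 0.05 and 0.08.

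The scarce members come into view when genes need only 10 counts over both libraries compared. For knockout against wild 9 members then remained, and MMP1, MMP10 and MMP13 lay above the line and MMP2 below, where 8.08% of 23083 genes lay above and 14.8% below. Active-labelled against wild left 8 members, with MMP1 and MMP10 above and none below, where 6.66% of 21811 genes lay above and 12.3% below. For knockout against active-labelled 9 members remained, with MMP13 alone above and none below, where 6.88% of 23043 genes lay above and 8.93% below. In the comparisons against wild, MMP1 and MMP10 reached 10 counts only through the library in which they were high, as did MMP13 in knockout against active-labelled, so their place above the line follows in part from the filter and is a description only. The comparisons against the OLFM4-wild line share that library, so a low value in it enters both.

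Levels of the listed protease and inhibitor genes were also compared within each library, where the scaling drops out. The summed RPKM of the 7 MMP genes was 59.1 per 100 of the 3 TIMP genes in the OLFM4-wild line (56.1 to 62.3), 53.7 in the OLFM4-knockout line (52.0 to 55.5) and 45.3 in the line labelled OLFM4-active (43.1 to 47.7), with intervals for counting error. This balance was nearly all MMP14. Without MMP14 the ratio ran in the opposite order, at 2.90 per 100 (2.41 to 3.50), 4.25 (3.84 to 4.71) and 4.99 (4.33 to 5.75). The sums leave out other MMP genes. In the wild, knockout and active-labelled libraries, MMP28 stood at 10.3, 16.7 and 10.1 RPKM, MMP3 at 0.148, 4.03 and 3.03 and MMP15 at 3.39, 1.67 and 1.72. The ratios and the order of the libraries therefore hold for the listed genes only. Set against the inhibitor that forms its activation complex, MMP14 was at 3.67 times the level of TIMP2 in the OLFM4-wild line (3.42 to 3.93), 4.69 times in the OLFM4-knockout line (4.47 to 4.91) and 3.15 times in the active-labelled line (2.95 to 3.37). MMP2 stood at 12.1 per 100 of TIMP2 in the OLFM4-wild line (9.88 to 14.9) and at 6.18 (5.07 to 7.53) and 7.51 (5.88 to 9.59) in the others. The sizes of these ratios rest on the gene length used. With the longest transcript as length, MMP14 was at 2.59, 3.31 and 2.22 times TIMP2 in the wild, knockout and active-labelled libraries. MMP2 was then at 9.56, 4.87 and 5.91 per 100 of TIMP2. MMP1 went from 0.189 per 100 of TIMP1 (0.0609 to 0.588) to 3.70 (3.20 to 4.28) and 5.32 (4.41 to 6.41).

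For the genes most alike in pattern, the 2 log2 fold changes against the OLFM4-wild line were compared over the 3 libraries with 9661 other protein-coding genes with a mean of 10 CPM or more. SNX15, LSS and HARS2 lay nearest to MMP14, within a Euclidean distance of 0.0123, and TBC1D13, GPSM2 and RGP1 lay nearest to TIMP2, within 0.0341. As 86 genes lay within 0.1 of MMP14 and 97 within 0.1 of TIMP2, these patterns were common ones.

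Of the 16 other MMP genes, 5 averaged 1 CPM or more. For knockout against wild MMP3 lay above the 2-fold line, where 5.77% of all genes did. MMP19, at -1.27 (-1.86 to -0.67), and the membrane-type gene MMP15, at -1.03 (-1.26 to -0.79), lay below it, where 7.56% did. MMP3 reached 1 CPM only through the libraries in which it was high, so its call was set by the filter. MMP19, at 2.53, 1.05 and 0.921 CPM in the wild, knockout and active-labelled libraries, passed the filter mainly through the wild library, where it was high. MMP28, which encodes epilysin of keratinocytes and other epithelia, was the most abundant of them per length, with 10.3, 16.7 and 10.1 RPKM and a log2 fold change of 0.70 (0.57 to 0.83) for knockout against wild. Of the 7 other inhibitors of metalloproteinases, RECK and SPOCK1 reached 1 CPM. RECK, a membrane-anchored inhibitor of MMP14, MMP2 and MMP9, had 35, 111 and 56 counts and a log2 fold change of 0.15 (-0.39 to 0.76) for knockout against wild, an interval that includes 0. SPOCK1, a testican proteoglycan, was lower at -1.09 (-1.27 to -0.92). The medians of the 5 MMP genes and of the 2 inhibitor genes were -0.45 and -0.47, where that of all 16600 genes was 0.10. TIMP4 had 1, 13 and 3 counts.

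Plasmin, made from plasminogen by the activators uPA and tPA, and furin-like convertases and matriptase are activators of proMMPs. Of 14 such genes and their inhibitors, 11 averaged 1 CPM or more. Their median for knockout against wild was 0.70, where that of all genes was 0.10. In this comparison 4 lay above the line and 1 below it, where 5.77% and 7.56% of all genes did. Among those above were PCSK5, a convertase, at 1.75 (1.54 to 1.97), PLAT, the gene for tPA, at 1.30 (0.96 to 1.67), and SERPINB2, which encodes an inhibitor of plasminogen activators, at 1.003 (0.83 to 1.18). SERPINE2, the gene for protease nexin-1, lay below at -1.23 (-1.36 to -1.10). With library totals, PLAT and SERPINB2 were at 0.95 and 0.65 and no longer past the line. For active-labelled against wild, 1 of the 11 lay above the line and 0 below, where 3.78% and 6.73% of all genes did. In that comparison PCSK5 was just under the line at 0.97, PLAT was at -0.45 and SERPINB2 at 0.33. FURIN stood at 41.7, 41.2 and 41.9 CPM, and ST14, the gene for matriptase, was the most abundant of the list per length with 31.4, 52.9 and 31.2 RPKM.

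Of 16 ADAM and ADAMTS genes, 8 averaged 1 CPM or more. Their median for knockout against wild was -0.16, where that of all genes was 0.10. Of these, 1 lay above the line and none below, where 5.77% and 7.56% of all genes did. It was ADAMTS1, the gene for a secreted protease that cuts proteoglycans such as versican and aggrecan, with 12 counts in the OLFM4-wild line, 300 in the OLFM4-knockout line and 222 in the line labelled OLFM4-active. Like MMP1, it was lowest in the OLFM4-wild line, with a log2 fold change of 3.09 (2.32 to 4.11) for knockout against wild and 3.76 (2.98 to 4.79) for active-labelled against wild. ADAMTS1 too passed the filter only through the libraries in which it was high. ADAM15 was the most abundant of this list per length, at 16.1, 23.3 and 17.4 RPKM. Of 13 genes whose products bind, take up or induce MMPs and TIMPs, 12 reached 1 CPM, with a median of 0.39 for knockout against wild. In that comparison 2 lay above the line and LCN2 below it, where 5.77% and 7.56% of all genes did. Those above encode thrombospondins, which bind MMP2 and MMP9 for uptake. They were THBS2, at 2.23 (1.88 to 2.63), and THBS1, at 1.05 (1.03 to 1.07), and THBS1 was at 0.70 with library totals. For active-labelled against wild, THBS2 lay above at 2.74 and THBS1 just under the line at 0.98, whereas ITGA2, which encodes a subunit of a collagen receptor and falls outside the naming rule, lay above at 1.47. Across the knockout and wild libraries the receptor gene LRP1, whose product takes up MMP and TIMP complexes, stood at 157 and 156 CPM.

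Among 25 genes for matrix substrates, 22 reached 1 CPM. For knockout against wild 0 lay above the line and 4 below it, where 5.77% and 7.56% of all genes did. Those below were BGN, the gene for biglycan, at -2.45 (-2.59 to -2.31), SPARC at -1.89 (-2.00 to -1.77), TNC, the gene for tenascin C, at -1.62 (-1.69 to -1.54) and COL5A1 at -1.54 (-1.61 to -1.47). With library totals NID2 lay below as well, at -1.02, and the shares of all genes above and below were 2.18% and 14.1%. The genes LAMA3 and LAMB3, for laminin chains of the epithelial basement membrane, were at 0.15 and 0.91, and with library totals LAMA3 was on the other side of 0, at -0.20. The median of the list was 0.14. COL17A1 was the most abundant of this list per length, at 209 RPKM in the OLFM4-wild line. Against the same wild line, 0 of the 22 lay above and 5 below in the active-labelled line, where 3.78% and 6.73% of all genes did. These 5 were SPARC (-1.71), COL5A1 (-1.70), BGN (-1.44), COL1A2 (-1.44) and COL4A2 (-1.05).

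AP-1 and ETS factors are known regulators of many MMP promoters. The list read here holds 18 genes, among them RUNX1 and RUNX2, which belong to neither family. Of the 18 genes, 17 reached 1 CPM, with 2 above the line and 4 below it for knockout against wild, where 5.77% and 7.56% of all genes did. FOSL1, which encodes the AP-1 subunit FRA-1, had 212, 2336 and 2022 counts and a log2 fold change of 1.96 (1.76 to 2.17) for knockout against wild and 2.86 (2.65 to 3.07) for active-labelled against wild. It was thus lowest in the OLFM4-wild line, as MMP1, MMP3 and MMP10 were, and a link between FOSL1 and these genes was not tested. FOS lay above as well, at 1.60 (1.56 to 1.64). The epithelial ETS genes EHF and ELF3 lay below at -2.60 (-2.76 to -2.43) and -1.31 (-1.51 to -1.12), as did ETS2 at -1.45 (-1.50 to -1.39) and the AP-1 gene FOSL2 at -1.23. The list had a median of -0.11. JUNB was the most abundant of this list per length. In the active-labelled line 5 of the 17 lay above the line against wild and 3 below, where 3.78% and 6.73% of all genes did. Those above were FOSL1, FOSB (1.25), ETV4 (1.16), JUND (1.09) and FOS (1.03), those below EHF (-3.10), ELF3 (-2.10) and ETS2 (-1.23). FOS and JUND missed the line with library totals, at 0.91 and 0.98. The median was 0.61, the value of RUNX1, where that of all genes was 0.05.

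Of 17 genes for ligands and receptors that can induce MMPs, 14 reached 1 CPM. Their median for knockout against wild was -0.10, where that of all genes was 0.10. In this comparison 2 lay above the line and 3 below it, where 5.77% and 7.56% of all genes did. The EGF receptor ligand genes EREG and TGFA lay above, at 2.28 (2.14 to 2.43) and 1.01 (0.90 to 1.12), and TGFA was at 0.66 with library totals. IL6 lay below at -2.75 (-3.47 to -2.10), as did the interleukin-1 receptor gene IL1R1 at -1.75 (-2.07 to -1.44) and TGFB2 at -1.38 (-1.66 to -1.09). IL6 reached 1 CPM only through the OLFM4-wild line, where it was high, so its call was set by the filter. EGFR, the most abundant of the list per length, was at -0.26 (-0.28 to -0.24). Over all 126 genes of these lists that are not among the 10, 91 reached 1 CPM, of which 12 lay above and 16 below the line for knockout against wild, where 5.77% and 7.56% of all genes did. With library totals 7 lay above and 19 below, where 2.18% and 14.1% of all genes did. In active-labelled against wild 12 lay above and 13 below, where 3.78% and 6.73% of all genes did. For knockout against active-labelled 4 lay above and 3 below, or 2 and 11 with library totals, where 2.95% and 3.39% of all genes did, or 1.29% and 6.97%. These 7 were COL1A2 (2.35), PLAT (1.75), FN1 (1.20), JUNB (1.04), ETV5 (-1.28), LCN2 (-1.10) and BGN (-1.01), and FN1 and JUNB were at 0.96 and 0.80 with library totals. The median of the 91 genes was 0.15, 0.11 and -0.05 in these comparisons.

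**Figure D4:**
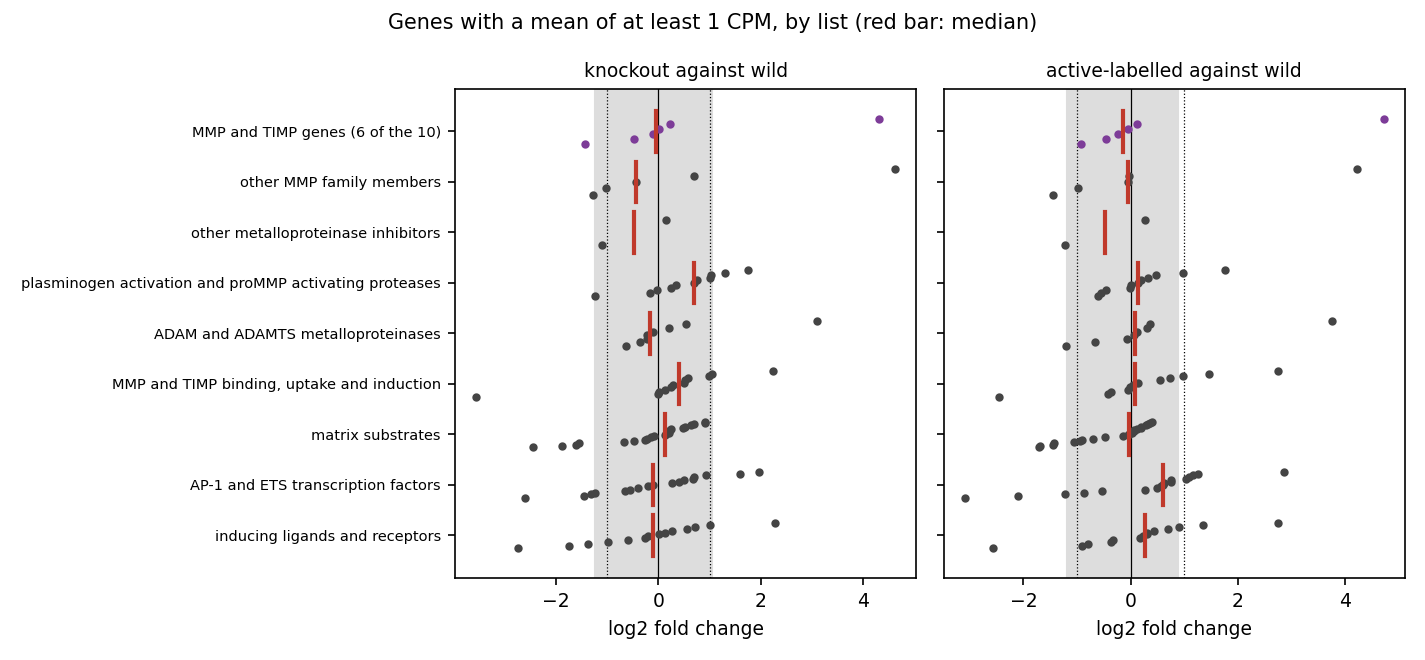
Log2 fold change against the OLFM4-wild line of each gene averaging 1 CPM or more, by list, with 1 point per gene and a red bar at the median of the list. Grey spans the central 90% of all such genes, and MMP1, MMP3 and ADAMTS1 are the points furthest to the right in both panels, at 3.09 or more.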

How the data were processed

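Total RNA of RWPE1 cells was sequenced in stranded pairs after removal of ribosomal RNA, with 1 library per line. The authors aligned reads to GRCh38 with HISAT2 2.0.5 and deposited counts per gene, as whole numbers, of read pairs that mapped uniquely in the reverse orientation, from featureCounts 1.5.2, without normalization. The annotation version they used is not given in the sources used here. Symbols, positions and exon lengths came from GENCODE version 44 on GRCh38, matched by identifier without its version. Library sizes were scaled with TMM factors of edgeR 4.0.16 in R 4.3.3. Log2 fold changes used an offset of 0.5 counts, as in limma-voom, and intervals are conditional Clopper-Pearson intervals on both counts. Ratios of summed levels have intervals from the Poisson variance of the counts. No test could be fitted with 1 library per line, and no p-value is given. The calculation was tested on simulated data. Python 3.11.15, numpy 2.4.6, pandas 2.3.3, scipy 1.17.1 and matplotlib 3.10.9 were used.

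The members and the 8 related lists were chosen with earlier results of these data known. All 10 members were named. Of each list, up to 5 genes beyond the 2-fold line for knockout against wild averaging 1 CPM or more were named, with the most abundant gene per length. For the MMP and the TIMP gene with the largest such change averaging 10 CPM or more, the 3 genes nearest in pattern were named. Other genes in the text were chosen after their values were seen, and a few listed genes are not reported here. Alternatives were other scalings (library totals, size factors of DESeq2 1.42.0, upper quartile factors, sizes without the 10 most abundant genes), an offset of 5 counts, thinning to the depth of the OLFM4-wild library, other filters and thresholds, and another gene length.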

Additional observations from a re-analysis of the deposited data

How the results depend on the processing

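No paired analysis was possible because each line has 1 library. The number of members past the 2-fold line for knockout against wild, 2 in the report, was 2 under each scaling, offset and thinning tried and when the whole counting interval had to pass, was 1 at a log2 threshold of 2 (MMP1), 4 with a filter at 10 counts over both libraries and 5 with no filter. For active-labelled against wild the 1 member became 2 with library totals and with thinning, each time by adding MMP2, 2 with the filter at 10 counts and 4 with no filter. For knockout against active-labelled the count of 0 became 1 (MMP13) with the filter at 10 counts and with no filter. Over all related lists, the 7 genes past the line for knockout against active-labelled became 13 with library totals, 11 of them below the line and 2 above, where the report gives 3 and 4. For knockout against wild the 12 related genes above the line became 7 and the 16 below became 19 with library totals. The totals of related genes past the line otherwise stayed within 1.5 times. The MMP to TIMP balance per 100 with the longest transcript as length was 55.9 in the OLFM4-wild and 51.4 in the OLFM4-knockout library. Without MMP14 it was 2.90, 4.25 and 4.99 in the OLFM4-wild, OLFM4-knockout and active-labelled libraries. Of 30 log2 fold changes of single members, 10 left their counting interval with library totals and 6 with upper quartile factors, and 0 did so with DESeq2 size factors, an offset of 5 counts, thinning, or sizes without the 10 most abundant genes. Signs changed for TIMP3 with upper quartile factors for knockout against wild (-0.08) and against active-labelled (-0.04), and with library totals for knockout against active-labelled in TIMP1 (-0.13) and TIMP3 (-0.18). Values under about 1 CPM rest on few counts in the OLFM4-wild library, the shallowest, and the line, its clone and its library cannot be told apart.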
